A study of Mus musculus with 24 samples.

Results

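A set of 8 transcription factors that mark naive, memory or effector lymphocytes, Tcf7, Lef1, Satb1, Foxo1, Bach2, Id3, Id2 and Prdm1, was followed in single NK1.1+CD3e+ cells of the mouse liver. They were chosen by symbol, and all 8 were found among the 24447 genes of the count matrix. The mice were C57BL/6, 8 to 10 weeks old and untreated, and were either WT, Jα18-deficient or CD1d-deficient. Liver leukocytes were sorted for NK1.1 and CD3e together and single cells were picked by hand, so NK1.1-negative NKT cells were not sampled. Jα18-deficient mice lack the gene segment that the receptor of type I NKT cells needs, and the line first made is known to have lost other Jα segments as well. The CD1d-deficient line has lost the lipid-presenting molecule on which NKT cells of both types depend. Neither the number nor the sex of the mice was given in the sources used here. The labels list 24 libraries, 8 per genotype, but each cell is named only by its genotype and a number, so the cells of a genotype formed 1 pool and genotypes were compared without a test.

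TCF1 (gene Tcf7) and LEF1 are related proteins that bind DNA through the same kind of domain, act downstream of Wnt and are kept high in naive and central memory T cells. FOXO1, BACH2 and SATB1 help to hold T cells in a quiescent or uncommitted state, and FOXO1 is known to drive Il7r and, through KLF2, S1pr1. ID2 and ID3 block E proteins, which bind E-boxes in DNA; ID2 is linked to effector and innate-like lymphocytes, ID3 to naive and memory cells, and BLIMP-1 (gene Prdm1) to terminal effector cells. S1pr1 encodes the receptor with which lymphocytes leave tissues towards the blood, and Il7r the receptor chain for the survival factor IL-7. Cells were therefore also classed by whether a unique molecular identifier (UMI, a tag that counts 1 captured transcript) of S1pr1 or of Il7r was detected in them.

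The matrix held 34102694 UMIs in 623 WT, 60484252 in 725 Jα18-deficient and 14536585 in 387 CD1d-deficient cells, with medians of 40467, 46670 and 13508 UMIs per cell. No 2 cells had identical counts. Levels are given as counts per 1000000 UMIs (CPM) of all cells of a pool or class, with exact Poisson 95% intervals. Shares of cells are given with exact Clopper-Pearson 95% intervals. Both cover counting error only, not the spread between mice. The intervals of levels and of their ratios count each UMI as independent, so they also leave out the spread between cells. Since shallow cells miss genes, shares are given in cells thinned at random to 10000 UMIs, which kept 523, 632 and 227 cells. A sum cannot tell more cells with a transcript from more transcripts per cell, so both are given. All 5 markers of the sort (Cd3d, Cd3e, Cd3g, Cd247 and Klrb1c, which encodes NK1.1) had UMIs in each pool, at a summed 4100 to 4388 CPM. Of the markers of other cells, the 6 myeloid genes summed to 87.7 CPM in WT, 22.3 in Jα18-deficient and 615 in CD1d-deficient cells, most of it Lyz2, and a myeloid UMI was found in 81.4% of CD1d-deficient cells. The 5 B cell genes summed to 6.07, 11.2 and 14.4 CPM with Ebf1 at 0 in the WT and CD1d-deficient pools and Ms4a1 at 0 in the Jα18-deficient pool. The 6 hepatocyte genes summed to 16.4, 2.63 and 1.72 CPM with Alb and Fabp1 at 0 in the Jα18-deficient pool, and the 5 endothelial genes to 6.48, 14.7 and 5.92 CPM with Kdr at 0 in all pools. Their part in the results was not tested.

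The sequences just before the starts of Tcf7, Lef1 and Id2 are shown because Tcf7 and Lef1 had the highest fitted log2 fold changes by S1pr1 detection and Id2 had lower medians in the cells with Tcf7. They are the 250 bases before the most upstream RefSeq start, and for Lef1 also those before the most downstream of its 4 listed starts, on GRCm38.p6, 5′ to 3′ on the gene's strand. Capitals mark CTTTGA or CTTTGT, the core bound by TCF1 and LEF1, GTAAACA, the core bound by FOXO factors, and CANNTG, the E-box, on either strand.
Tcf7, chr11:52283015-52283264, minus strand: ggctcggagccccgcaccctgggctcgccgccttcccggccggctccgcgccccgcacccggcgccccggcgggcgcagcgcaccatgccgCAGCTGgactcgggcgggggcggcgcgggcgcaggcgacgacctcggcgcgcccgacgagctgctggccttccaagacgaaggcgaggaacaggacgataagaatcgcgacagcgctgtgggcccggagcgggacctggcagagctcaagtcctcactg
Lef1 upstream start, chr3:131110047-131110296, plus strand: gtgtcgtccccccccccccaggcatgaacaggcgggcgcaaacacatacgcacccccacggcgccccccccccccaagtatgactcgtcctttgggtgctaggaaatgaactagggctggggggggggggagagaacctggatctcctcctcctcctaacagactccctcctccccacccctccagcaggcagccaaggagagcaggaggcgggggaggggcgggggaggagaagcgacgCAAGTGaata
Lef1 downstream start, chr3:131156044-131156293, plus strand: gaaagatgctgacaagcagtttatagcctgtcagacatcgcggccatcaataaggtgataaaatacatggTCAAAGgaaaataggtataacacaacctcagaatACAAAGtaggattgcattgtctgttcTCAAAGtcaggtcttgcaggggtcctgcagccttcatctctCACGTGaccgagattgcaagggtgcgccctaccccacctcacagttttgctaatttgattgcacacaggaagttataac
Id2, chr12:25096093-25096342, minus strand: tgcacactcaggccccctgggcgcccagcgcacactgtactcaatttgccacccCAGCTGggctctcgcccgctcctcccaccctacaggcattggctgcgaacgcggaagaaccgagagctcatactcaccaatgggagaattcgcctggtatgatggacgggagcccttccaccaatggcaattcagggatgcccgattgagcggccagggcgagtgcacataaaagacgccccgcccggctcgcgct
The TCF and LEF core occurred 3 times in the window of the downstream Lef1 start and not in the other windows shown, once in the window of Bach2 and once in a stretch that 2 overlapping windows of Satb1 share. It occurred in 27.6% of the 32851 mouse windows of the same length, the FOXO core in 3.17% and the E-box in 66.2%. Among all 16 windows of the 8 members the FOXO core was found only in that of Prdm1. Each window shown had 1 exact match in NCBIM37, the build of the gene models used for positions, and 165 bases of the Tcf7 window lay in coding sequence there while the other 3 windows touched no exon. Matches of these letters are a description and not evidence of binding.

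Tcf7 (chromosome 11, 52065873 to 52096681 on NCBIM37) had 41.4 CPM in WT (95% interval 39.3 to 43.7), 63.4 in Jα18-deficient (61.4 to 65.4) and 57.1 in CD1d-deficient cells (53.3 to 61.1). In thinned cells it was detected in 17.2% (14.1 to 20.7), 22.0% (18.8 to 25.4) and 16.3% (11.7 to 21.8). The WT pool had the lowest sum, but WT and CD1d-deficient cells overlapped in the share detected, and 1 cell gave 26.6% of the CD1d-deficient UMIs. Without the cell with most Tcf7 UMIs in each pool, the log2 ratio of CD1d-deficient to WT cells went from 0.46 to 0.13. Before thinning, Tcf7 was detected in 26.3%, 39.9% and 23.0% of the cells. Lef1 (chromosome 3, 130813389 to 130927274) had 218 CPM in WT (213 to 223), 200 in Jα18-deficient (196 to 203) and 157 in CD1d-deficient cells (150 to 163), and was detected in 46.5%, 43.2% and 31.7% of thinned cells (60.0%, 64.8% and 35.4% before thinning). Both measures of Lef1 were lowest in the CD1d-deficient pool, while the shares of the WT and Jα18-deficient pools overlapped. The log2 ratio of Lef1 between CD1d-deficient and WT cells was -0.48 (-0.54 to -0.41) in the sums and -1.09 when each cell weighed the same.

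Satb1 (chromosome 17, 51875512 to 51972615), which encodes an organiser of chromatin in developing T cells, had the lowest ratio of CD1d-deficient to WT cells among the 8. Its level was 189 CPM in WT (184 to 193), 160 in Jα18-deficient (156 to 163) and 68.8 in CD1d-deficient cells (64.6 to 73.2). It was detected in 48.2% (43.8 to 52.6), 35.1% (31.4 to 39.0) and 17.2% (12.5 to 22.7) of thinned cells, and none of these intervals overlapped. Before thinning the shares were 62.6%, 57.5% and 21.2%. The log2 ratio of CD1d-deficient to WT cells was -1.45 (95% counting interval -1.55 to -1.36) and that to Jα18-deficient cells -1.21 (-1.31 to -1.12). Lyz2, at 77.3, 14.7 and 588 CPM in the 3 pools, was highest in the same CD1d-deficient pool, and its part was not tested.

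Id3 (chromosome 4, 135699412 to 135701670) was rare in WT cells and more abundant in both deficient pools. It had 5.92 CPM in WT (5.13 to 6.80), 33.6 in Jα18-deficient (32.2 to 35.1) and 23.1 in CD1d-deficient cells (20.7 to 25.7). It was detected in 1.91% (0.921 to 3.49), 7.12% (5.24 to 9.41) and 9.25% (5.82 to 13.8) of thinned cells (3.69%, 14.8% and 13.2% before thinning). The WT pool lay below both others in level and in share, with log2 ratios of 2.50 (2.29 to 2.72) for Jα18-deficient and 1.96 (1.71 to 2.22) for CD1d-deficient over WT cells. The order of the latter pools turned with the measure: the sum was higher in Jα18-deficient cells, but the mean over cells was higher in CD1d-deficient cells, by a log2 ratio of 0.38. UMIs of Id3 were concentrated, with 10 cells holding 93.1%, 71.3% and 76.5% of them in the 3 pools.

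Id2 (chromosome 12, 25778666 to 25780957) was detected in nearly every cell. Its level was 5143 CPM in WT (5119 to 5168), 3854 in Jα18-deficient (3839 to 3870) and 3777 in CD1d-deficient cells (3745 to 3808). The share of thinned cells with a UMI was 99.8%, 98.4% and 97.8% (100%, 99.9% and 99.7% before thinning). WT cells had the highest level of Id2 and the lowest level of Id3, the other inhibitor of E proteins. The log2 ratios for Id2 were -0.42 (-0.43 to -0.41) in Jα18-deficient and -0.45 (-0.46 to -0.43) in CD1d-deficient over WT cells.

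Foxo1, Bach2 and Prdm1 were detected in few cells. Foxo1 (chromosome 3, 52072259 to 52154031) had 26.0 CPM in WT, 44.7 in Jα18-deficient and 25.7 in CD1d-deficient cells, and 8.99%, 12.3% and 9.69% of thinned cells with a UMI. The Jα18-deficient pool had the highest sum, but the intervals of the shares overlapped. Bach2 (chromosome 4, 32325779 to 32673083) had 11.2 CPM in WT, 16.6 in Jα18-deficient and 36.0 in CD1d-deficient cells, but 1 cell held 63.9% of the CD1d-deficient UMIs. Without the cell with most Bach2 UMIs in each pool, the levels were 8.23, 13 and 13.2 CPM, and the log2 ratio of CD1d-deficient to Jα18-deficient cells went from 1.12 to 0.02. Bach2 was detected in 3.44% (2.05 to 5.38), 5.70% (4.02 to 7.80) and 7.93% (4.77 to 12.2) of thinned cells. The unthinned shares of Foxo1 were 13%, 20.7% and 10.9%, those of Bach2 8.35%, 14.5% and 13.4%, and those of Prdm1 8.19%, 9.66% and 6.20%. Prdm1 (chromosome 10, 44156983 to 44248307) had 16.6 CPM in WT, 15.6 in Jα18-deficient and 8.19 in CD1d-deficient cells, and 4.59%, 4.43% and 6.17% of thinned cells with a UMI. The lowest level and the highest share of Prdm1 were both in the CD1d-deficient pool, so no order was read for it.

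**Figure D1:**
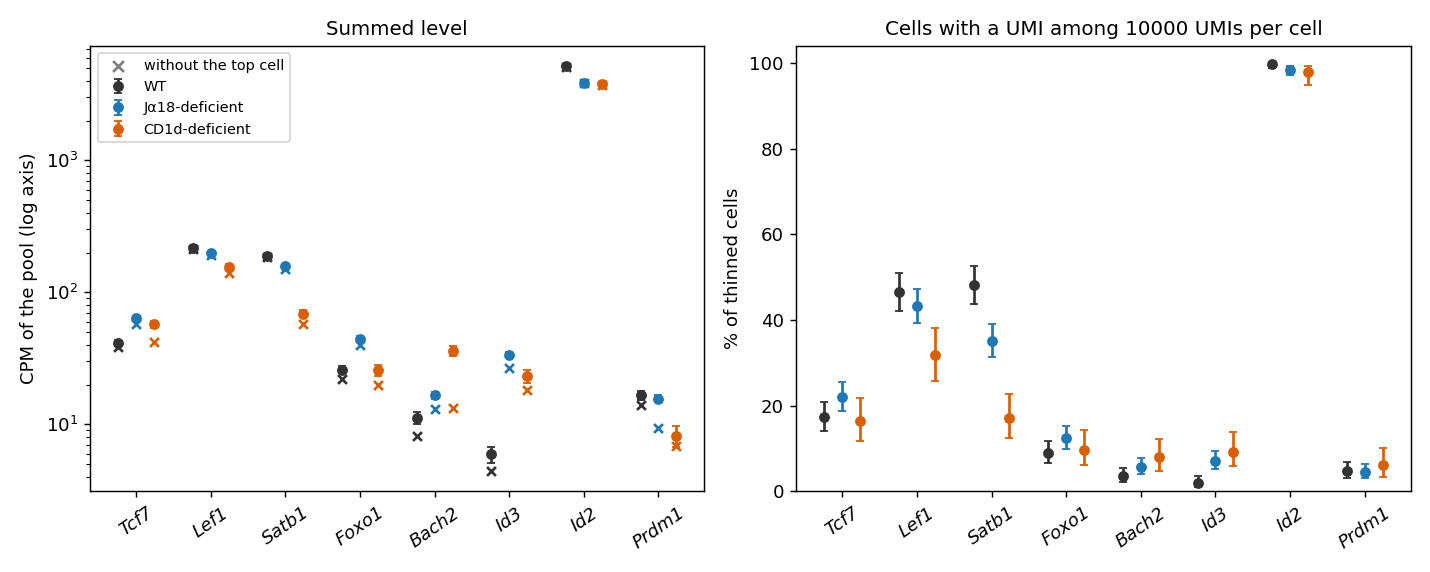
Left, summed level of the 8 transcription factors in CPM on a log axis in WT, Jα18-deficient and CD1d-deficient cells, with crosses for the level without the cell that had most of the gene's UMIs. Right, percentage of cells with a UMI after thinning to 10000 UMIs; bars are 95% counting intervals in both plots. Satb1 was in 48.2% of WT and 17.2% of CD1d-deficient cells, and the cross of Bach2 in CD1d-deficient cells stands at 13.2 CPM against 36.0 for all cells.

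A gene was counted as past the fold between pools when its CPM differed by 2-fold or more and the pair held 100 or more of its UMIs, with no test. Of the 8 members only Id3, which was higher, was past it in Jα18-deficient over WT cells, where 21.2% of 10267 genes were past it, 14% higher and 7.14% lower. In CD1d-deficient over WT cells Id3 and Bach2 were past it and higher, and Satb1 and Prdm1 past it and lower, 4 of 8 where 24.5% of 9447 genes were, 12.2% higher and 12.3% lower. In CD1d-deficient over Jα18-deficient cells Bach2 was past it and higher and Satb1 past it and lower, 2 of 8 where 27.3% of 10042 genes were, 9.58% higher and 17.8% lower. The median log2 ratio over all genes was 0.13, 0.01 and -0.13 in these comparisons, which share pools with each other. Without its highest cells Bach2 was no longer past it in the comparisons of CD1d-deficient cells, at log2 ratios of 0.68 and 0.02, but on thinned cells it was past it in both deficient pools over WT, at 1.32 and 1.32. When each cell weighed the same, Prdm1 was no longer past it, at -0.58, and Lef1 was, at -1.09, in CD1d-deficient over WT cells.

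A UMI of S1pr1 was found in 37 WT (5.94%), 113 Jα18-deficient (15.6%) and 38 CD1d-deficient cells (9.82%). In thinned cells these shares were 4.21%, 8.23% and 7.49%. The cells with S1pr1 were deeper than those without: their median was 57516 against 40082 UMIs in WT, 84504 against 40853 in Jα18-deficient and 32616 against 12923 in CD1d-deficient cells. Counts were summed per pool and class, and edgeR compared the classes over 3 pools in a model that also had a term for pool. Pools of different genotypes thus served as replicates, and a p measures only the spread between these pools. Beside the depth, the summed myeloid markers were 115 against 85.8, 19.5 against 23.2 and 514 against 629 CPM with and without S1pr1, and those of the sort 3496 against 4141, 4036 against 4508 and 3564 against 4388 CPM; their part was not tested.

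Lef1 was higher in S1pr1-detected cells of every pool. It had 352 against 209 CPM in WT, 303 against 165 in Jα18-deficient and 324 against 134 in CD1d-deficient cells, or 326 ± 24.6 against 169 ± 37.6 (mean ± SD, n = 3 pools). The 3 levels with S1pr1 all lay above the 3 levels without it. In thinned cells, Lef1 was found in 72.7% (49.8 to 89.3) against 45.3% (40.9 to 49.8) of WT cells. The shares were 57.7% (43.2 to 71.3) against 41.9% (37.8 to 46.0) in Jα18-deficient and 58.8% (32.9 to 81.6) against 29.5% (23.4 to 36.2) in CD1d-deficient cells. The thinned classes with S1pr1 held only 22, 52 and 17 cells, and the intervals overlapped in each pool, in WT cells only just. The log2 fold change was 1.1 (SE 0.22, 95% interval 0.61 to 1.58), with an adjusted p of 0.343 by edgeR's quasi-likelihood test, and so it was not called. It was called on thinned cells, with 1.34 and an adjusted p of 0.00203 by edgeR, and by DESeq2, with 1.12 and an adjusted p of 0.00415, and over the 11 alternatives the adjusted p ran from 0.00203 to 0.781.

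Tcf7 had 54.6 against 40.5 CPM in WT, 98.0 against 51.6 in Jα18-deficient and 166 against 42.3 in CD1d-deficient cells with and without S1pr1. The 3 levels with S1pr1 spread widely, at 106 ± 56.0 CPM against 44.8 ± 5.94 (mean ± SD, n = 3 pools). In WT cells 1 cell held 47.1% of the Tcf7 UMIs of the S1pr1-detected class, and without it the level was 30.1 CPM, below the 40.5 CPM of the cells without S1pr1. Without the highest cell of each class, the levels were 73.9 against 46.9 CPM in Jα18-deficient and 125 against 25.4 in CD1d-deficient cells. With all cells, the ratio within a pool was smallest in WT cells, at a log2 of 0.43 (0.15 to 0.70), and largest in CD1d-deficient cells, at 1.97 (1.76 to 2.18), with 0.92 (0.83 to 1.02) between them. In thinned cells, Tcf7 was found in 18.2% against 17.2% of WT, 26.9% against 21.6% of Jα18-deficient and 52.9% (27.8 to 77) against 13.3% (9.05 to 18.7) of CD1d-deficient cells. The shares of only the CD1d-deficient pool did not overlap. The fitted log2 fold change was 1.23 (SE 0.41, 0.34 to 2.13), with an adjusted p of 0.870 by edgeR (0.166 to 0.999 over the 11 alternatives), and leaving out the CD1d-deficient pool brought it to 0.77.

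Satb1 was higher with S1pr1 in each pool, with 227 against 186 CPM in WT, 176 against 154 in Jα18-deficient and 118 against 62.1 in CD1d-deficient cells. In the CD1d-deficient class with S1pr1 1 cell held 49.5% of the Satb1 UMIs, and on thinned cells this pool had the lower level with S1pr1, at 41.2 CPM (16.6 to 84.8) against 58.1 (48.2 to 69.4), with 17.6% against 17.1% of cells. The thinned levels were 314 against 185 CPM in WT and 181 against 162 in Jα18-deficient cells. In all cells the classes overlapped across pools, since the CD1d-deficient level with S1pr1 lay below the WT level without it. The fitted log2 fold change of Satb1 was 0.59 (SE 0.27, 0.00 to 1.19), with an adjusted p of 0.958 by edgeR. Id2 was lower with S1pr1 in each pool by CPM, with 4699 against 5174, 3663 against 3920 and 3296 against 3842 CPM. On the TMM scale of the fit this difference was -0.02 (SE 0.11, -0.26 to 0.21), with an adjusted p of 0.995 by edgeR, beside a median log2 fold change of -0.15 over all genes tested. On thinned cells it was -0.36 (SE 0.14) with an adjusted p of 0.412 by edgeR, within a range of 0.114 to 0.9998 over the 11 alternatives.

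In the sums of all cells, Foxo1, Bach2, Id3 and Prdm1 did not go one way. Foxo1 had 55.0 against 24 CPM in WT cells with and without S1pr1 but 31.9 against 49.0 in Jα18-deficient cells, and 25.8 against 25.6 in CD1d-deficient cells. In WT cells 1 cell held 62.5% of the Foxo1 UMIs of the S1pr1-detected class. Bach2 had 2.75 against 11.8, 18.8 against 15.9 and 42.4 against 35.2 CPM in WT, Jα18-deficient and CD1d-deficient cells. Of its UMIs in the S1pr1-detected classes, 83.3%, 75.1% and 68.9% came from 1 cell each. Id3 had a single UMI in the 37 WT cells with S1pr1, a log2 ratio of -3.78 (-9.09 to -1.29). It was also lower with S1pr1 in Jα18-deficient cells, at 27.0 against 35.9 CPM. In CD1d-deficient cells it was about level, at 24.1 against 23.0 CPM, a log2 ratio of 0.07 (-0.43 to 0.54). Prdm1 likewise had a single UMI in the 38 CD1d-deficient cells with S1pr1, a log2 ratio of -4.01 (-9.32 to -1.5), and 7.86 against 18.3 CPM in Jα18-deficient cells, but 19.3 against 16.4 in WT cells. In the WT class with S1pr1, 1 cell held 73.8% of the Prdm1 UMIs. Without each class's highest cell the WT levels were 5.22 against 13.7 CPM. On thinned cells Prdm1 was lower with S1pr1 in all 3 pools, at 0 against 15.8, 9.62 against 17.4 and 0 against 16.7 CPM. The values of 0 allow up to 13.6 CPM in WT and 17.6 in CD1d-deficient cells. The fitted log2 fold changes were 0.32 (SE 0.60) for Foxo1, -0.29 (SE 0.82) for Bach2, -0.82 (SE 0.92) for Id3 and -1.22 (SE 1.12) for Prdm1, with adjusted p of 0.982, 0.984, 0.970 and 0.964 by edgeR.

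**Figure D2:**
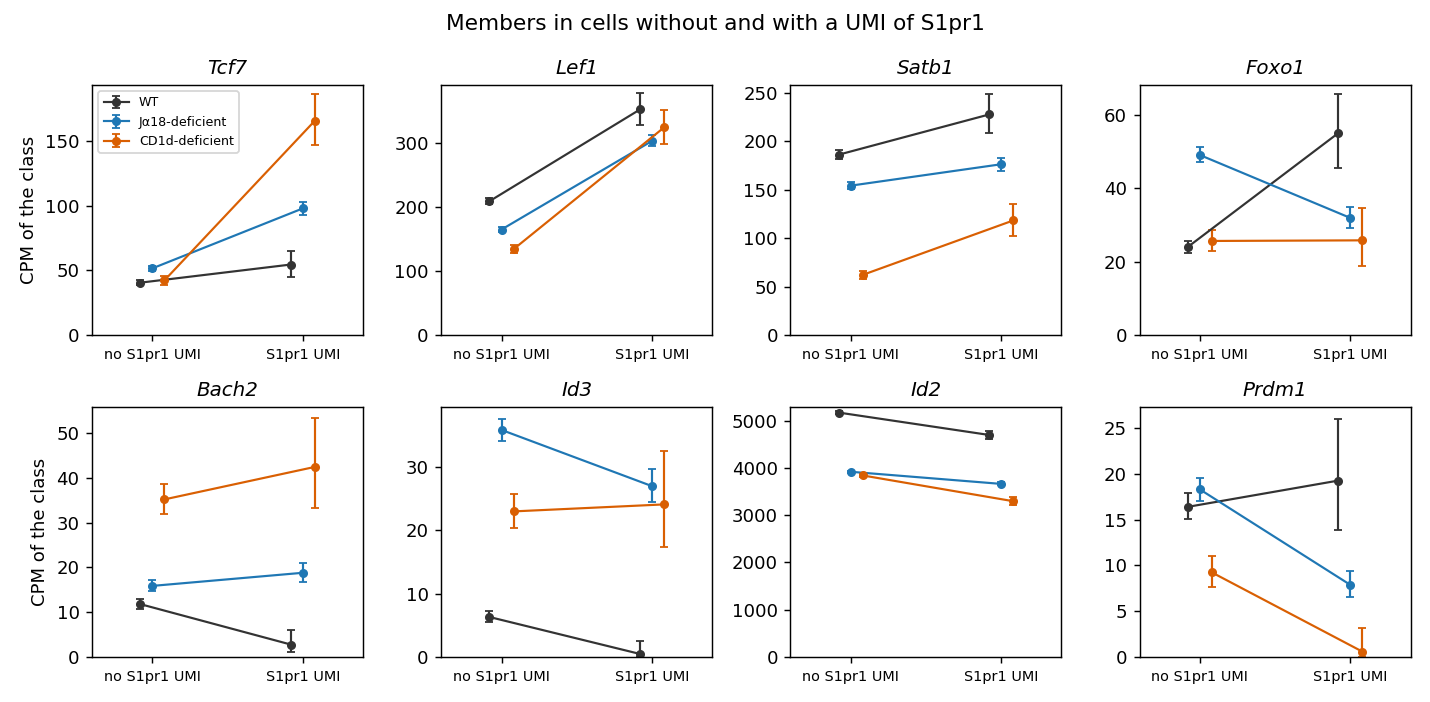
Level in CPM of each transcription factor in cells without and with a UMI of S1pr1, 1 line per genotype, with 95% counting intervals. All 3 lines of Tcf7, Lef1 and Satb1 rise to the right and those of Id2 fall, while those of Foxo1, Bach2, Id3 and Prdm1 go both ways. The rise of Prdm1 in WT cells rests on 1 cell that held 73.8% of the UMIs of its class. The right ends of Tcf7 in WT and of Satb1 in CD1d-deficient cells each lean on 1 cell that held 47.1% and 49.5% of the UMIs, and the fit over the 3 pools made no call for any of the 8.

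None of the 8 members was called at an adjusted p under 0.05 by edgeR, where 1 of 10094 genes (0.00991%) was. Before adjustment 3 of 8 (Lef1, Tcf7 and Satb1) were at a p under 0.05 and higher, beside 2.07% of all genes, and 0 of 8 were lower, beside 3.07%. DESeq2 called 1 of the 8, Lef1, and limma on the mean of ln(1 + counts per 10000) over cells called none of them. The fitted values of the 8 had a median of 0.15, with 4 of 8 above 0, against -0.15 for all genes. Il7r itself, with 614 against 381, 418 against 185 and 462 against 169 CPM in cells with and without S1pr1, had a log2 fold change of 1.23 (SE 0.21) and an adjusted p of 0.137 by edgeR. It was called by DESeq2, by limma and on thinned cells, with adjusted p over 10 alternatives from 3.76e-09 to 0.781.

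Il7r had a UMI in 413 WT cells (66.3%), 437 Jα18-deficient cells (60.3%) and 148 CD1d-deficient cells (38.2%), and in 50.3%, 32.4% and 27.8% of thinned cells. These cells too were deeper, with a median of 46898 against 29105, 71460 against 27361 and 27031 against 10146 UMIs. The classes were larger than those by S1pr1, and the same fit was made. The summed myeloid markers were 94.2 against 68.9, 24 against 15.8 and 603 against 627 CPM with and without Il7r, and the hepatocyte markers 5.71 against 47.7 CPM in WT cells; their part was not tested.

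Tcf7 was higher in Il7r-detected cells of every pool, with 48.2 against 21.8 CPM in WT, 71.5 against 32.9 in Jα18-deficient and 91.9 against 24.4 in CD1d-deficient cells. The means were 70.5 ± 21.9 against 26.4 ± 5.81 CPM (mean ± SD, n = 3 pools), and the classes did not overlap. In thinned cells Tcf7 was found in 21.7% (16.8 to 27.1) against 12.7% (8.90 to 17.4) of WT, 31.7% (25.4 to 38.6) against 17.3% (13.9 to 21.3) of Jα18-deficient and 28.6% (17.9 to 41.3) against 11.6% (7.12 to 17.5) of CD1d-deficient cells. The shares were above those without Il7r in all pools, with intervals that overlapped by little in WT and not in the others. Within a pool the log2 ratios were 1.14 (0.92 to 1.37), 1.12 (0.97 to 1.27) and 1.91 (1.67 to 2.16). The fitted log2 fold change was 1.36 (SE 0.36, 0.59 to 2.13), with an adjusted p of 0.999 by edgeR. DESeq2 gave an adjusted p of 0.0557, and limma, in which every cell weighs the same, called Tcf7 with an adjusted p of 0.0270, the lowest of the 11 alternatives, of which the highest was 0.9997. By limma, 650 of the 822 genes at an unadjusted p under 0.05 were higher with Il7r, against 176 of 388 by edgeR. It used unthinned cells, which were deeper with Il7r, and the part of depth in this call was not tested.

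Lef1 by Il7r differed with the measure, and its difference from Tcf7 was not tested. In all cells Lef1 had 221 against 210 CPM in WT, 204 against 184 in Jα18-deficient and 176 against 139 in CD1d-deficient cells with and without Il7r, and the classes overlapped across pools. On thinned cells the levels were 229 against 223, 258 against 179 and 205 against 79.9 CPM. The thinned shares were 49.0% against 43.8%, 48.8% against 40.5% and 47.6% (34.9 to 60.6) against 25.6% (19.1 to 33.0), apart in the CD1d-deficient pool only. Its fitted log2 fold change was 0.16 (SE 0.18, -0.24 to 0.56), with an adjusted p of 0.999 by edgeR, while it was 0.62 on thinned cells with an adjusted p of 0.883. Satb1 had 187 against 193 CPM in WT, 163 against 146 in Jα18-deficient and 77.8 against 60.3 in CD1d-deficient cells, and a fitted 0.13 (SE 0.21) that was 0.71 on thinned cells, with adjusted p of 0.999 and 0.753 by edgeR. On thinned cells Satb1 was higher with Il7r in all 3 pools, at 206 against 175, 216 against 138 and 102 against 39.6 CPM, and in 51.3% against 45%, 43.9% against 30.9% and 28.6% against 12.8% of cells. Id2 had 5056 against 5399 CPM in WT, 3782 against 4127 in Jα18-deficient and 3875 against 3684 in CD1d-deficient cells, and a fitted -0.08 (SE 0.07). In all cells, 1 pool went against the other two for Satb1 and for Id2, and neither passed the test.

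In all cells Foxo1 was higher with Il7r in each pool, with 27.9 against 20.4 CPM in WT, 47.2 against 35.1 in Jα18-deficient and 30.0 against 21.6 in CD1d-deficient cells. Its log2 ratios of 0.45, 0.43 and 0.47 were close to one another, but on thinned cells the WT pool went the other way, at 16.7 CPM (12.2 to 22.5) against 40.8 (33.4 to 49.3) and in 7.98% against 10% of cells. The thinned levels were 57.1 against 43.8 CPM in Jα18-deficient and 63.5 against 25.6 in CD1d-deficient cells. The fitted 0.42 (SE 0.40, -0.45 to 1.29) had an adjusted p of 0.999 by edgeR. Id3 had 3.94 against 11.7 CPM in WT and 8.38 against 37.0 in CD1d-deficient cells but 36.5 against 22.6 in Jα18-deficient cells. Bach2 had 12.2 against 8.15 CPM in WT cells but 13.8 against 27.1 in Jα18-deficient and 16 against 54.8 in CD1d-deficient cells, where 1 cell held 81.5% of the UMIs without Il7r. Prdm1 had 19.3 against 8.61, 16 against 14.2 and 6.53 against 9.74 CPM. In all cells these 3 genes turned direction between pools, and their fitted values were -1.05 (SE 0.63) for Id3, -0.77 (SE 0.56) for Bach2 and 0.23 (SE 0.65) for Prdm1, each with an adjusted p of 0.999 by edgeR. On thinned cells Id3 did not turn. Its thinned levels with and without Il7r were 5.32 against 5.77, 21.5 against 25.5 and 22.2 against 32.9 CPM, with intervals that overlapped in each pool.

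**Figure D3:**
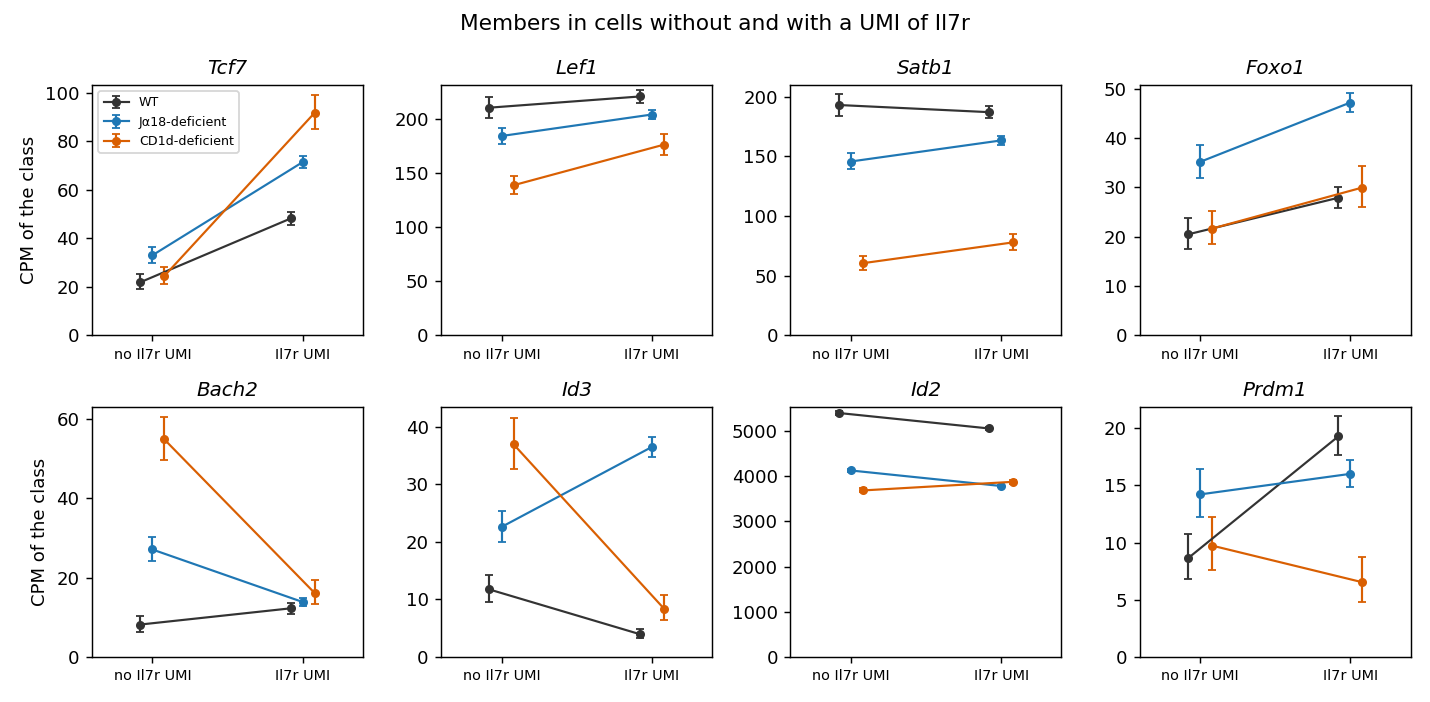
Level in CPM of each transcription factor in cells without and with a UMI of Il7r, 1 line per genotype, with 95% counting intervals. The 3 lines of Tcf7 rise from 21.8 to 32.9 CPM on the left to 48.2 to 91.9 CPM on the right without overlap, while those of Lef1, drawn from all cells, rise from 139 to 210 CPM on the left to 176 to 221 CPM on the right.

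edgeR called 0 of the 8 members and 0 of 10060 genes (0%), with 1 of 8 (Tcf7) and 388 of all genes at a p under 0.05 before adjustment; DESeq2 called 7 genes and limma 3, of which Tcf7 was 1. Of all genes, 1.75% were higher and 2.11% lower at that unadjusted threshold. The fitted values of the 8 had a median of 0.15, with 5 of 8 above 0, against 0.00 for all genes.

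**Figure D4:**
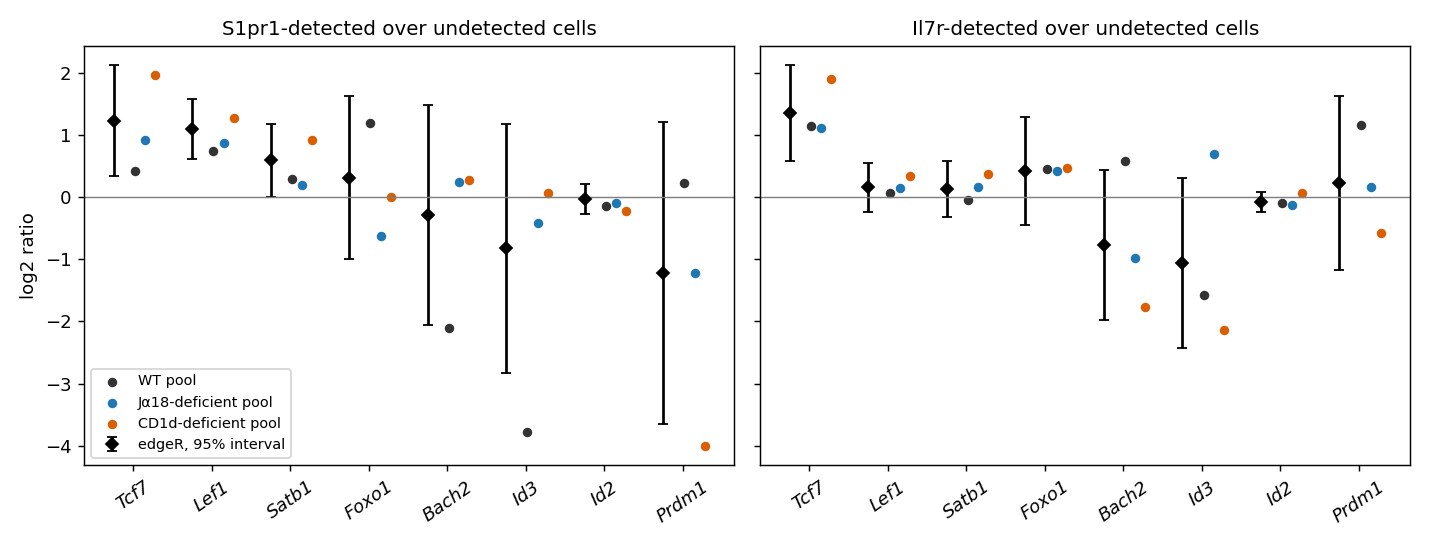
Fitted log2 fold change of each transcription factor with its 95% interval (diamonds, edgeR over 3 pools) and the log2 ratio of CPM within each pool (circles), for S1pr1 on the left and Il7r on the right. The intervals of Tcf7, Lef1 and Satb1 on the left and of Tcf7 on the right lie above 0, but none of the 8 passed the adjustment over all genes by edgeR.

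When both genes classed the cells, Tcf7 had its highest level in the cells with S1pr1 and Il7r of both deficient pools, while in WT cells that order rested on 1 cell. In WT cells it had 58.1 CPM in the 29 cells with both, 36.4 with S1pr1 alone, 47.4 with Il7r alone and 21.2 with neither, but without the cell with most Tcf7 UMIs the level with both was 28.8 CPM. After thinning, the cells were classed anew by the UMIs kept. Tcf7 was found in 16.7% of WT cells with both (2 of 12), 20% with S1pr1 alone, 21.9% with Il7r alone and 12.4% with neither. In Jα18-deficient cells these levels were 104.5 CPM in 91 cells, 26.5, 57.6 and 33.7. In CD1d-deficient cells they were 315 CPM in 23 cells, 36.4, 62.9 and 22.7. The cells with S1pr1 but without Il7r were few, at 8, 22 and 15. In thinned Jα18-deficient cells Tcf7 was found in 34.3% with both (19.1 to 52.2) and 31.2% with Il7r alone (24.3 to 38.7), which overlapped. It was found there in 11.8% with S1pr1 alone and 17.6% with neither. In thinned CD1d-deficient cells the shares were 70% with both (7 of 10), 28.6% with S1pr1 alone, 20.8% with Il7r alone and 10.8% with neither. Lef1 had 363, 314 and 514 CPM in the WT, Jα18-deficient and CD1d-deficient cells with both, and 207, 185 and 136 CPM in the cells with neither. With Il7r alone Lef1 stood at 210, 158 and 132 CPM, close to or below the cells with neither, and with S1pr1 alone at 294, 177 and 160 CPM. The shares went the other way: in thinned WT cells Lef1 was found in 47.4% with Il7r alone against 43.2% with neither. These shares were 45.9% against 40.2% in Jα18-deficient and 41.5% against 25.5% in CD1d-deficient cells, with intervals that overlapped in each pool. With both genes as terms of 1 fit, Tcf7 had a log2 fold change of 0.92 (SE 0.46) for S1pr1 and 1.54 (SE 0.46) for Il7r, and Lef1 had 0.86 (SE 0.27) and 0.42 (SE 0.27), with adjusted p of 0.783, 0.998, 0.568 and 0.998 by edgeR.

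Id2 was measured deeply enough to be compared cell by cell. Among 10000 UMIs per cell, the median number of Id2 UMIs was 39.5 in the 90 WT cells with Tcf7 and 48 in the 433 without it. It was 30 in 139 against 38 in 493 Jα18-deficient cells, and 16 in 37 against 33 in 190 CD1d-deficient cells. Cells with Tcf7 thus had the lower median in 3 of 3 pools, with interquartile ranges that overlapped in each (7 to 38 against 22 to 50.5 in CD1d-deficient cells). By S1pr1 the medians were 38.5 against 48, 25 against 37 and 14 against 32, again lower in each pool for the cells with the gene. By Il7r they were 47 against 48, 34 against 37 and 27 against 32.5. The correlation of Tcf7 with Id2 over the thinned cells was -0.08, -0.26 and -0.39 in the 3 pools. It is Pearson's r of ln(1 + counts per 10000), with n = 523, 632 and 227 cells. The values are a description of sparse counts that share each cell's total of 10000 UMIs.

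**Figure D5:**
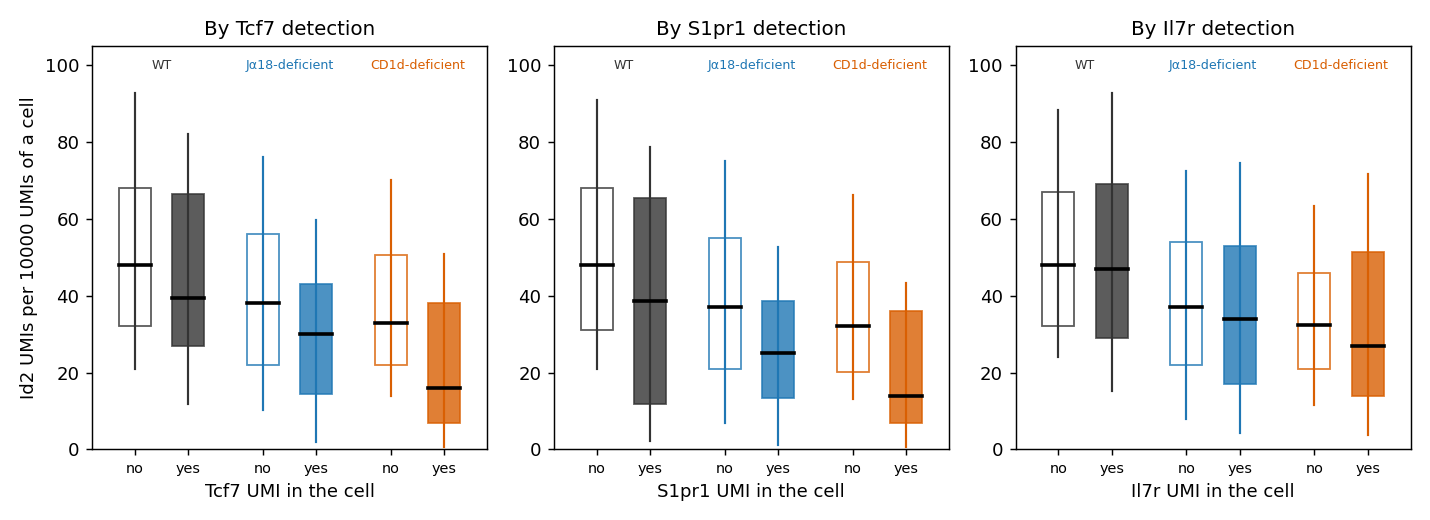
Id2 UMIs per 10000 UMIs of a cell in cells without (open boxes) and with (filled boxes) a UMI of Tcf7, S1pr1 or Il7r, by genotype. Boxes span the quartiles, black lines are medians and thin lines reach from the tenth to the ninetieth percentile; in CD1d-deficient cells the median was 33 without and 16 with Tcf7, and 32 without and 14 with S1pr1.

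Tcf7 and Lef1 were not always found together. Lef1 had a UMI in 42.2% of the thinned WT cells with Tcf7 and in 47.3% of those without it. The shares were 54.0% (45.3 to 62.4) against 40.2% (35.8 to 44.6) in Jα18-deficient cells and 45.9% (29.5 to 63.1) against 28.9% (22.6 to 36.0) in CD1d-deficient cells. The intervals were apart in the Jα18-deficient pool only. Satb1 was found in 58.9% against 46.0%, 35.3% against 35.1% and 27.0% against 15.3% of the cells with and without Tcf7. Prdm1 was found in 0 of 37 CD1d-deficient cells with Tcf7, which allows a share of up to 8.11%, and in 7.37% of the 190 cells without it, so a difference was not detectable at this number of cells.

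The genes whose values across thinned cells were most like those of a member, by mean r over the 3 pools, were ranked among 3679 genes found in at least 10% of the thinned cells of each pool. For Tcf7 they were Il7r (mean r 0.25), Ly6c2 (0.16) and the ribosomal protein gene Rps7 (0.15). In WT, Jα18-deficient and CD1d-deficient cells, r was 0.18, 0.16 and 0.41 for Il7r. It was -0.02, 0.09 and 0.41 for Ly6c2, and 0.08, 0.11 and 0.27 for Rps7. The mean for Ly6c2 thus came mostly from the CD1d-deficient pool. For Lef1 they were the ribosomal protein genes Rplp0 (0.16) and Rpl41 (0.16), and Ly6c2 (0.16). Each of these was lowest in the WT pool and highest in the CD1d-deficient pool, with Ly6c2 at 0.05 and 0.26. For Id2 they were Cxcr6 (0.32), a chemokine receptor of liver-resident lymphocytes, Socs2 (0.23), a brake on cytokine signalling, and Sh3bgrl3 (0.22). For Satb1 they were the ribosomal protein genes Rps4x (0.15) and Rps7 (0.15), and Cd28 (0.14), a costimulatory receptor. Id3, Bach2, Foxo1 and Prdm1 were in too few cells to be ranked. All these correlations are weak and share the cells and their depth.

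Lists of related genes were followed in the same fits. Of 12 other factors of naive and memory cells, 10 were tested by S1pr1 and none was called; Klf2, which drives S1pr1, had the smallest p with a log2 fold change of 1.89 (SE 0.51) and an adjusted p of 0.870 by edgeR. By Il7r, 11 of the 12 were tested, none was called, and Foxp1 led with 0.53 (SE 0.22) and an adjusted p of 0.999. Of 12 factors of effector and resident cells, 11 were tested in each comparison and none was called. Rora led by S1pr1, with -1.44 (SE 0.50), and Zbtb16, which encodes the NKT cell factor PLZF, led by Il7r, with 2.02 (SE 0.69), with adjusted p of 0.870 and 0.999 by edgeR. Of the E proteins that ID2 and ID3 bind, and the other Id genes, 3 of 5 were tested in each comparison and none was called; Tcf4 led with -2.92 (SE 1.64) by S1pr1 and 1.5 (SE 0.92) by Il7r, and an adjusted p of 0.958 and 0.999 by edgeR.

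Of 13 surface and other genes of naive and memory cells, all were tested and 1, Ly6c2, was called by S1pr1, with a log2 fold change of 1.43 (SE 0.17) and an adjusted p of 0.0128 by edgeR; it was the only gene called of all tested. By Il7r, Ly6c2 had 0.74 (SE 0.13) and an adjusted p of 0.698. This list had a median of 0.16 by S1pr1 and 0.35 by Il7r, beside -0.15 and 0.00 over all genes. At an unadjusted p under 0.05, 4 and 3 of 13 were higher, beside 2.07% and 1.75% of all genes. Of 14 genes of effector and resident cells none was called. Ccl4, a chemokine of activated cytotoxic cells, led by S1pr1 with -1.81 (SE 0.28) and an adjusted p of 0.0861, and Gzmb, which encodes granzyme B, led by Il7r with -0.54 (SE 0.13) and an adjusted p of 0.999 by edgeR. Of this list, 2 of 14 by S1pr1 and 6 of 14 by Il7r were lower at an unadjusted p under 0.05, beside 3.07% and 2.11% of all genes. In each comparison 1 of the 14 was higher at that threshold, Cd69 by S1pr1 and Itgae by Il7r, both named after their values were seen, with adjusted p of 0.958 and 0.999 by edgeR.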

How the data were processed

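Per the labels and the authors' methods, reads were trimmed with cutadapt 1.15, aligned to mm9 with TopHat2 2.0.12, freed of duplicates by UMI and counted per gene with HTSeq 0.10.0. The deposited matrix holds these raw counts of UMIs for 24447 genes and 1735 cells; 353 cells lie below the 10000 UMIs of the authors' stated filter and were kept. Every column of cells was mapped to a genotype (0 were not), and none to a library. Cells were picked by hand, and no doublet caller was run.

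Counts were summed per genotype and per S1pr1 or Il7r class (at least 1 UMI against 0). Thinned cells were classed by the UMIs kept after thinning. Classes were compared by glmQLFit and glmQLFTest, the quasi-likelihood test, in edgeR 4.0.16 under R 4.3.3 (TMM, filterByExpr, pool as a term, two-sided, Benjamini-Hochberg over all genes tested), leaving out the gene that made the classes, and the steps were tested on simulated data. The fit had been planned over libraries; since cell names carry no library, it was made over pools. Alternatives were DESeq2 1.42.0, no filter, no pool term, the stated filter on cells and thinning to 10000 UMIs. Further ones were at least 2 UMIs for detection, both genes as terms and leaving out each pool. Another was limma 3.58.1 (per class and pool, the cells' average of ln(1 + counts per 10000)). Thinning to 5000 UMIs was used only for the shares of cells in each pool. Genotypes were compared by CPM with exact Poisson intervals and shares by exact Clopper-Pearson intervals (Python 3.11.15, scipy 1.17.1), and figures were made with matplotlib 3.10.9. For a count of 0 the limit used was 3 counts, and a ratio of 2 sums was computed only where both were above 0 and at least 1 was above 3.

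The members and the gene lists were chosen with earlier results of these data known. Genes named are the 8 members, S1pr1 and Il7r, the called genes of each list or else its gene with the smallest p, and the 3 genes most like each member found in at least 10% of thinned cells of each pool. Of the listed genes, Zfp683 was not matched by symbol and was not analysed here. Single values of some listed genes are not reported here. Gene positions are those of gencode vM1 on NCBIM37, and promoter windows are RefSeq's on GRCm38.p6, for all 8 members; no coordinates were converted.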

Additional observations from a re-analysis of the deposited data

Results flagged for a closer look

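For some members the ratio between detection classes lay above 0 in at least 1 genotype and below 0 in another, with 95% counting intervals that left out 0; whether the genotypes differed was not tested, since each is 1 pool. By Il7r detection, the log2 ratio of Bach2 was 0.59 in WT, -0.97 in Jα18-deficient and -1.77 in CD1d-deficient cells. That of Id3 was -1.57, 0.69 and -2.14, that of Prdm1 was 1.16, 0.17 and -0.58, and that of Id2 was -0.0947, -0.13 and 0.0731. By S1pr1 detection, the log2 ratio of Bach2 was -2.10 in WT, 0.24 in Jα18-deficient and 0.27 in CD1d-deficient cells. That of Foxo1 was 1.2, -0.62 and 0.00944. Some of these values rested on single cells. Without each class's highest cell, Bach2 by S1pr1 turned in Jα18-deficient cells, at 4.73 against 12.1 CPM. Foxo1 by S1pr1 then had 21.7 against 19.7 CPM in WT cells and turned in CD1d-deficient cells, at 16.4 against 19.2. Bach2 by Il7r had 8.88 against 10.5 CPM in CD1d-deficient cells. The other directions were kept. On thinned cells, however, the level of Id3 was lower with Il7r in all 3 pools.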

How the results depend on the processing

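By S1pr1 detection, where 1 gene was called, 31 were called by DESeq2, 10 without the filter on low counts, 36 on thinned cells, 3 under the stated filter on cells, 14 with at least 2 UMIs, 3 by limma, 2 with both genes as terms, 0 without the pool term (with 528 at an unadjusted p under 0.05) and 10 to 17 when 1 pool was left out. By Il7r detection, where 0 were called, DESeq2 called 7, no filter 4, thinned cells 10, limma 3 and leaving out 1 pool 0 to 14, with 14 without the Jα18-deficient pool. Against 2175, 2314 and 2745 genes past the 2-fold difference, 603, 726 and 852 were counted on thinned cells and 4023, 4121 and 4504 when 1 UMI sufficed, in the order Jα18-deficient over WT, CD1d-deficient over WT and CD1d-deficient over Jα18-deficient; the levels without each gene's highest cell were an alternative chosen after seeing the data.

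The sign of the following log2 values turned, in results that passed no test or had none. By S1pr1, Id2 was 0.00381 by DESeq2, Bach2 ranged from -0.76 to 0.38 and Foxo1 from -0.19 to 0.72 when 1 pool was left out (turning without the WT pool), Bach2 was 0.16 without the pool term, and Id3 0.27 on thinned cells and 0.00836 by limma. By Il7r, Prdm1 ranged from -0.22 (without the WT pool) to 0.62, and was -0.0906 with at least 2 UMIs and -0.0471 with both genes as terms, Bach2 0.15 on thinned cells and 0.33 with both terms, and Id3 0.92 with both terms. Between CD1d-deficient and WT cells, Prdm1 was 0.0296 on thinned cells, and Foxo1 0.33 on thinned cells and 0.0532 under the stated filter. Between Jα18-deficient and WT cells, Prdm1 was 0.15 on thinned cells. Between CD1d-deficient and Jα18-deficient cells, Bach2 was -0.43 as a mean over cells and -0.00628 on thinned cells, Id3 0.38 and 0.31 likewise, Tcf7 0.0794 as a mean over cells and Id2 0.0216 on the TMM scale. The cause was not tested. Id3 on thinned cells of the CD1d-deficient and WT pools had too few UMIs for a ratio. No paired analysis was possible because the cell names carry no library numbers, so libraries could not be paired; in every fit except that without the pool term, the classes of 1 pool were set against each other. The levels of classes without their highest cell were also chosen after seeing the data. Id3, Bach2 and Prdm1 were in under 10% of the thinned cells of each pool.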

Other observations

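Id2 was not detected in 16 of the 1382 thinned cells: 1 WT, 10 Jα18-deficient and 5 CD1d-deficient cells. These cells were singled out after their values were seen and were not tested. Tcf7 had a UMI in 10 of the 16 (62.5%, 35.4 to 84.8) and in 18.7% of the 1366 cells with Id2 (16.7 to 20.9), with 6 of 10 against 21.4% in Jα18-deficient and 4 of 5 against 14.9% in CD1d-deficient cells. Lef1 had a UMI in 12 of 16 (75%) against 42.2%, and S1pr1 in 7 of 16 (43.8%) against 6.15%. Il7r was found in 7 of 16 (43.8%) against 38.4%, and Satb1 in 4 of 16 (25%) against 37.3%. Bach2, Foxo1 and Id3 were each found in 1 of 16 (6.25%), against 5.20%, 10.7% and 5.49%. Prdm1 was found in 0 of 16, which allows a share of up to 18.8%, against 4.83%. Of the genes of the sort gate, Cd3e was found in 9 of 16 (56.2%) against 81.4% and Klrb1c, which encodes NK1.1, in 10 of 16 (62.5%) against 87.3%. Cxcr6 was found in 7 of 16 (43.8%) against 90.8%, and the B cell gene Cd79b in 1 of 16 (6.25%) against 2.42%. Lyz2 was found in 9 of 16 (56.2%) against 30.9%. By pool, Lyz2 was in 1 of 1 against 29.7% of WT and 3 of 10 against 9.97% of Jα18-deficient cells. In CD1d-deficient cells it was in 5 of 5 against 92.3%.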
